A study of Mus musculus with 6 samples.

Results

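Spry4 and its relatives were followed through the testes of mice that lack peptidylarginine deiminase 2, or 2 and 4. The set comprised 10 genes out of the 55536 in the count table. Spry4 was chosen by its measured counts, which were higher in the double knockout than in WT. Spry1, Spry2, Spred1, Spred2, Spred3, Dusp6, Etv4, Egr1 and Fos were added as the family of Spry4 and as other feedback or response genes of the ERK cascade. The rule set no condition on their values, but they were chosen with earlier results of these data known. Libraries were made from whole testes of 4-month-old males, 1 mouse per library and 2 per genotype, all on the FVB/NJ background and housed singly. WT mice were FVB/NJ. In P2KO mice the coding part of exon 1 of Padi2 is replaced by LacZ and neomycin sequence in a gene trap. DKO mice carry that Padi2 allele and, in addition, a CRISPR/Cas9-made deletion of 4 nucleotides in exon 1 of Padi4, and their line descends from 1 founder. The comparisons ask how the genes stood in DKO and in P2KO against WT, and in DKO against P2KO.

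Receptor tyrosine kinases such as the FGF receptors signal through RAS, RAF and MEK to the kinases ERK1 and ERK2. Active ERK switches on transcription factors (Egr1, Fos and the ETS factor Etv4) and also the genes of its own inhibitors. Sprouty proteins (Spry) block the cascade between receptor and RAF, Spred proteins bring the RAS inactivator neurofibromin (Nf1) to the membrane, and the phosphatase Dusp6 removes the activating phosphates from ERK. In the testis, FGF and GDNF signals of this kind are known for maintaining spermatogonial stem cells.

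Spry4, Egr1 and Etv4 had no promoter window at hand. For the other 7 of the 10 genes, windows of 300 bases (250 before and 50 after the annotated start, RefSeq on GRCm38.p6) were used. They were searched on both strands for CCGGAAG, the core bound by ETS factors, for TGACG, the core of the cyclic AMP response element (CRE core), for the full element TGACGTCA, for the AP-1 site TGANTCA and for the CArG box, which serum response factor binds. The CRE core is contained in the full element. Spry1, Spry2, Spred1, Spred3 and Dusp6 held 0 matches to any of these motifs, Spred2 held 1 CRE core and Fos held 2. Of all 32851 promoter windows, 8.86% held the ETS core, 20.8% the CRE core, 1.79% the full element, 7.81% the AP-1 site and 1.63% the CArG box. Nf1 and Flrt3, the 2 genes of the wider pathway with an adjusted p under 0.05 by edgeR for DKO against WT, were searched as well. Nf1 held 1 ETS core, on the minus strand, and Flrt3 held 0 of the motifs. The windows of Fos (chr12:85473640-85473939, plus strand) and Nf1 (chr11:79339642-79339941, plus strand) are shown as those among the response genes and the called pathway genes with matches, which are in capitals, the CRE cores for Fos and the reverse complement of the ETS core for Nf1.
Fos: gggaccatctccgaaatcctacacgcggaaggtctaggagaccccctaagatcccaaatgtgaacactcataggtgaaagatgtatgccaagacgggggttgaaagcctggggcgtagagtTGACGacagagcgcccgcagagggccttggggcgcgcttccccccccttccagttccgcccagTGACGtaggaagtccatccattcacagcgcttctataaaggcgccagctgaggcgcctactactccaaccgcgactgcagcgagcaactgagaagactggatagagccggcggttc
Nf1: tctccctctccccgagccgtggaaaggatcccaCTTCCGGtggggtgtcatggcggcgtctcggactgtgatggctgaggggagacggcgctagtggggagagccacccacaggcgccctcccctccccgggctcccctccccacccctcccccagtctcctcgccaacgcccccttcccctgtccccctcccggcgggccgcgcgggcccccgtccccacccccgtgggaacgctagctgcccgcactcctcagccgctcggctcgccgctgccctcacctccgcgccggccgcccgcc
A match is a run of letters and not a measured binding site.

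Between 21939393 and 27306679 reads were counted on genes in a library, of which the 10 genes of the set took 2 to 1176 each. The libraries held the markers of testis. In RPKM, the read count scaled for exon length and library size, the spermatid gene Prm2 reached 5670 ± 382 (SD, n = 6 libraries), the Sertoli cell gene Clu 203 ± 10.96, the Leydig cell gene Cyp17a1 146 ± 21.95 and the spermatocyte gene Sycp3 122 ± 2.56. The spermatogonial gene Uchl1 stood at 25.2 ± 1.59. Of the 5 epididymal markers, Rnase10 stood at 2.77 ± 0.280 with 95 to 138 counts in a library, Crisp1 had 0 to 9 counts, Lcn8 and Lcn9 had 0 to 3, and Lcn5 was at 0 throughout. Padi2 had 47 and 64 counts in WT, 100 and 55 in P2KO and 59 and 83 in DKO, and Padi4 had 20 and 43, 11 and 10, and 4 and 4. These counts cover all exons and not only the altered part, and those of Padi2 overlapped between all genotypes and do not check the labels. Padi4 was lower in DKO than in WT (log2 fold change -2.94, adjusted p = 0.000278 by edgeR), in the direction of the DKO label, and its P2KO libraries lay between. Padi4 is not edited in P2KO, where its counts also lay below both of WT, so lower counts are not particular to the DKO label.

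The 10 genes covered a broad range of levels. In RPKM, averaged over all 6 libraries, Spred3 stood highest at 6.84 ± 0.628 (SD, n = 6). Dusp6 followed at 1.76 ± 0.286, Spred1 at 1.39 ± 0.0882, Spred2 at 1.34 ± 0.0816, Egr1 at 1.31 ± 0.250 and Spry1 at 1.10 ± 0.159. Spry2 (0.751 ± 0.145), Spry4 (0.584 ± 0.229), Fos (0.215 ± 0.149) and Etv4 (0.143 ± 0.0302) were lowest. Neighbours in this order overlapped across libraries, except that Spred3 lay above Dusp6 and Spry1 above Spry2 in every library. Spry3, the remaining Sprouty gene, had 1 count in a single P2KO library and 0 in the other 5.

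**Figure D1:**
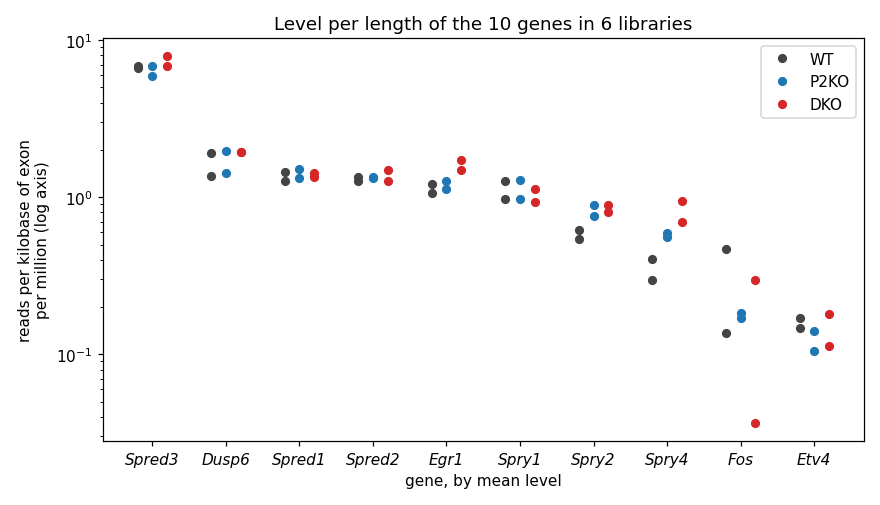
Level of each gene in RPKM (log axis), with 1 point per library and colours for WT, P2KO and DKO. Spred3 lies between 5.95 and 7.91, above all other genes, and Spry4 moves from 0.299 to 0.405 in WT up to 0.700 to 0.952 in DKO.

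Spry4 (ENSMUSG00000024427, GRCm38 chromosome 18, 38586247 to 38601415, minus strand) encodes a Sprouty inhibitor of receptor tyrosine kinase signalling. Its counts were 31 and 51 in WT, 73 and 65 in P2KO and 116 and 77 in DKO. As normalized counts, which are counts scaled to a common library size, these were 34.9 and 47.2, 64.8 and 69.2, and 111 and 81.6. The genotypes did not overlap, and both P2KO libraries lay between those of WT and DKO. The means were 41.1 ± 8.69 in WT, 67.0 ± 3.15 in P2KO and 96.4 ± 20.8 in DKO (SD, n = 2 each). The fitted log2 fold change was 1.22 for DKO against WT, which is 2.33-fold, 0.69 for P2KO against WT (1.61-fold) and 0.53 for DKO against P2KO (1.45-fold). Because Spry4 was chosen for its level in DKO, these values are a description and carry no test. Without the DKO library of 116 counts, the log2 fold change was 0.97 against WT and 0.28 against P2KO.

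Counting error alone left Spry4 broad limits in a single library. The exact 95% Poisson limits on its normalized count were 23.7 to 49.6 and 35.2 to 62.1 in the WT libraries, 50.8 to 81.4 and 53.4 to 88.2 in P2KO, and 91.8 to 133 and 64.4 to 102 in DKO. These limits cover counting error only and not the difference between mice. In RPKM, Spry4 was below Spry2 in WT, at 0.299 and 0.405 against 0.616 and 0.542, and overlapped it in DKO, at 0.952 and 0.700 against 0.804 and 0.890. The annotation places 2 small RNA genes on the opposite strand within Spry4, both with 0 counts, and BLAST found no near-identical transcript of another gene.

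A gene was called where its adjusted p was under 0.05 in the quasi-likelihood test of edgeR, adjusted over all tested genes by the Benjamini-Hochberg method. Of the 9 genes other than Spry4, 0 were called in DKO against WT, where 3.22% of all 20744 tested genes were called. All 10 genes of the set passed the filter on low counts. By unadjusted p under 0.05, 1 of the 9 passed (Egr1), against 14.1% of all genes, and DESeq2 called 0. In P2KO against WT 0 of the 9 were called, where the share over all genes was 0.337% (0.198% higher and 0.14% lower). The number with an unadjusted p under 0.05 was 0, against 8.57% of all genes, and DESeq2 called 0. In DKO against P2KO 0 of the 9 were called, where the share was 1.21% (0.607% higher and 0.598% lower). Of them 2 (Egr1 and Spred3) had an unadjusted p under 0.05, against 11.8% of all genes, and DESeq2 called 0. Their median log2 fold change was 0.08 for DKO against WT, against -0.0048 over all tested genes. In each comparison 6 of the 9 values were above 0, against 48.8% of all genes for DKO against WT, 51% for P2KO against WT and 49.2% for DKO against P2KO. With libraries that do not overlap, 4 of the 9 were higher in DKO than in WT (Spry2, Spred3, Dusp6 and Egr1) and 0 lower, where 21.6% of all tested genes were higher in this sense and 21.6% lower. The margins of Spred3 and Dusp6 were narrow. In P2KO against WT 1 of the 9 was higher (Spry2) and 1 lower (Etv4) without overlap, against 18.7% and 18.8% of all genes. In DKO against P2KO 2 were higher (Spred3, again narrowly, and Egr1) and 0 lower, against 21.1% and 21.6%.

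Of the 15 genes annotated within 250 kb of it, 3 had enough counts to be tested, and 0 of these were called by edgeR in any comparison. None of the 3 had an unadjusted p under 0.05, and DESeq2 called 0 as well. The log2 fold changes of DKO against WT were -0.04 for Ndfip1, an adaptor of ubiquitin ligases, 0.03 for Gnpda1, an enzyme of glucosamine metabolism, and 0.05 for the pseudogene AC134576.3. Egr1 lies 3.72 Mb away on the same chromosome, and of the 84 tested genes between it and Spry4, 3 were called in DKO against WT, which were Ndufa2, Ankhd1 and Pcdhgc3. Over chromosome 18 the share called was 2.63%, against 3.22% of all tested genes.

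Spry1 and Spry2, the other Sprouty genes with counts, did not pass the test in any comparison. Spry2 (chromosome 14, 105891947 to 105896819, minus strand) had normalized counts of 31.5 and 27.8 in WT, 39.0 and 45.8 in P2KO and 41.2 and 45.6 in DKO. Both mutant genotypes lay above WT without overlap, and P2KO and DKO overlapped. The log2 fold change was 0.55 for DKO against WT (95% interval -0.03 to 1.13, adjusted p = 0.384), 0.51 for P2KO against WT (-0.06 to 1.09, adjusted p = 0.640) and 0.04 for DKO against P2KO (-0.50 to 0.58, adjusted p = 0.978). Spry1 (chromosome 3, 37639947 to 37644598, plus strand) had normalized counts of 69.8 and 90.7 in WT, 92.2 and 69.2 in P2KO and 80.5 and 66.8 in DKO. The 3 genotypes overlapped, and the log2 fold change of DKO against WT was -0.13 (-0.56 to 0.30, adjusted p = 0.861).

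**Figure D2:**
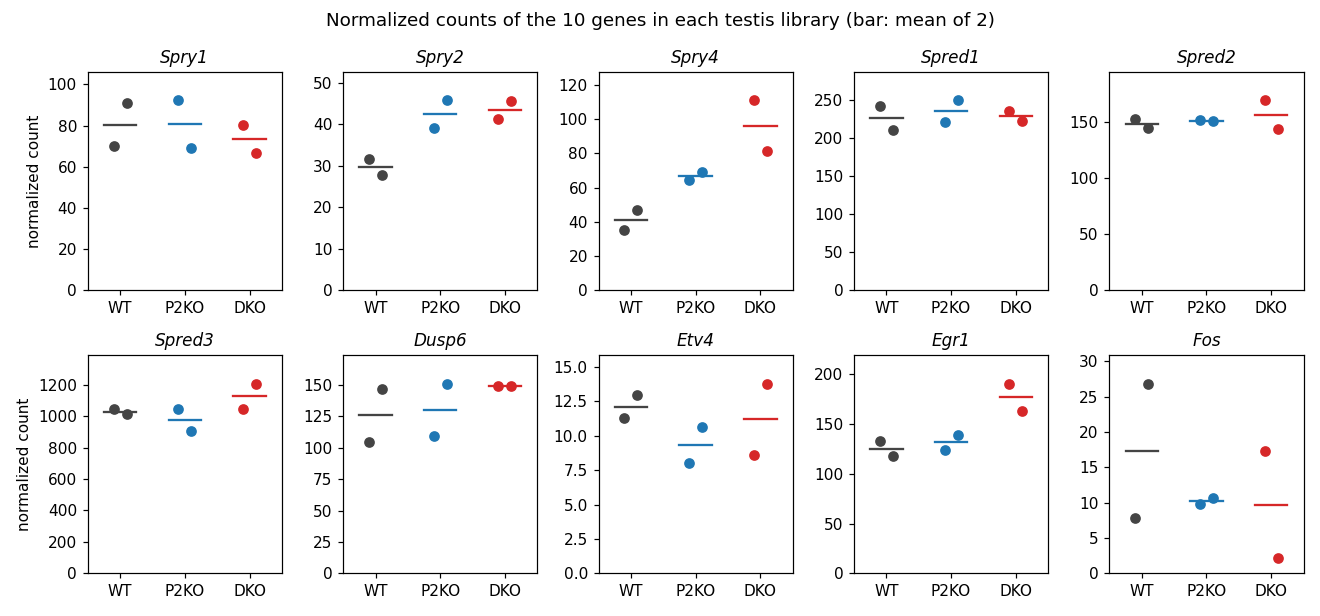
Normalized counts (vertical axis, starting at 0) of the 10 genes in each library, with a bar at the mean of the 2 libraries of a genotype. Spry4 rises in steps from 41.1 to 67.0 to 96.4 without overlap, both DKO libraries of Egr1 lie above the others, and Fos runs from 2.12 to 26.8 with overlapping genotypes.

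None of the 3 Spred genes passed the test in any comparison. Spred1 (chromosome 2, 117121374 to 117182279, plus strand) had normalized counts of 242 and 211 in WT, 222 and 250 in P2KO and 237 and 223 in DKO, and its log2 fold change of DKO against WT was 0.02 (95% interval -0.24 to 0.29, adjusted p = 0.966). Spred2 (chromosome 11, 19924375 to 20024026, plus strand) had 153 and 144, 152 and 151, and 170 and 144, with a log2 fold change of 0.08 (-0.23 to 0.39, adjusted p = 0.884). The genotypes overlapped for both genes. Spred3 (chromosome 7, 29158829 to 29170411, minus strand) had 1042 and 1012 in WT, 1043 and 908 in P2KO and 1047 and 1206.5 in DKO. Its log2 fold change was 0.13 against WT (-0.03 to 0.30, adjusted p = 0.505) and 0.20 against P2KO (0.04 to 0.37, adjusted p = 0.279). Both DKO libraries lay above all others, the lower of them only narrowly. Leaving out 1 library, the values ran from 0.028 to 0.23 against WT and from 0.10 to 0.31 against P2KO, both lowest without DKO library 2. Spred3 shares 202 exonic bases, 3.25% of its exons, with the germ cell gene Ggn on the opposite strand. Ggn had 12958 to 16588 counts in a library, and the Spred3 count was between 6.58% and 7.55% of that of Ggn in each. The log2 fold change of Ggn was 0.12 against WT and 0.17 against P2KO. The part of Ggn reads in the values of Spred3 was not tested.

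Dusp6 (chromosome 10, 99263231 to 99267489, plus strand), the ERK phosphatase, had normalized counts of 105 and 147 in WT, 109 and 151 in P2KO and 149 and 149 in DKO. The DKO libraries stood at the level of the higher library of the other genotypes. The log2 fold change of DKO against WT was 0.23 (95% interval -0.12 to 0.59, adjusted p = 0.615), with 0.017 without WT library 1 and 0.51 without WT library 2, and that of P2KO was 0.02 (-0.34 to 0.38, adjusted p = 0.990).

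Egr1 (chromosome 18, 34859823 to 34864984, plus strand), a zinc-finger transcription factor induced within minutes of ERK activation, had normalized counts of 133 and 118 in WT, 124 and 139 in P2KO and 191 and 163 in DKO. Both DKO libraries lay above the 4 others, and WT and P2KO overlapped. By edgeR, Egr1 stood at a log2 fold change of 0.51 for DKO against WT (95% interval 0.19 to 0.82, adjusted p = 0.0681), 0.43 for DKO against P2KO (0.12 to 0.74, adjusted p = 0.198) and 0.07 for P2KO against WT (-0.25 to 0.40, adjusted p = 0.946). It thus missed the threshold after adjustment, here and with every alternative tried, where the adjusted p against WT ran from 0.0629 to 0.614.

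Fos and Etv4 had the fewest counts. Fos (chromosome 12, 85473890 to 85477273, plus strand), the AP-1 subunit, had 7 and 29 counts in WT, 11 and 10 in P2KO and 18 and 2 in DKO, so that the libraries of WT and those of DKO lay far apart and overlapped. Its log2 fold change of DKO against WT was -0.84 (95% interval -1.997 to 0.31, adjusted p = 0.560), 0.33 without the WT library of 29 counts and -3.02 without the DKO library of 18. Etv4 (chromosome 11, 101769742 to 101785371, minus strand) had 10 and 14, 9 and 10, and 9 and 13 counts, with a log2 fold change of -0.13 (-1.15 to 0.89, adjusted p = 0.952). The intervals of both genes were wide at this depth.

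**Figure D3:**
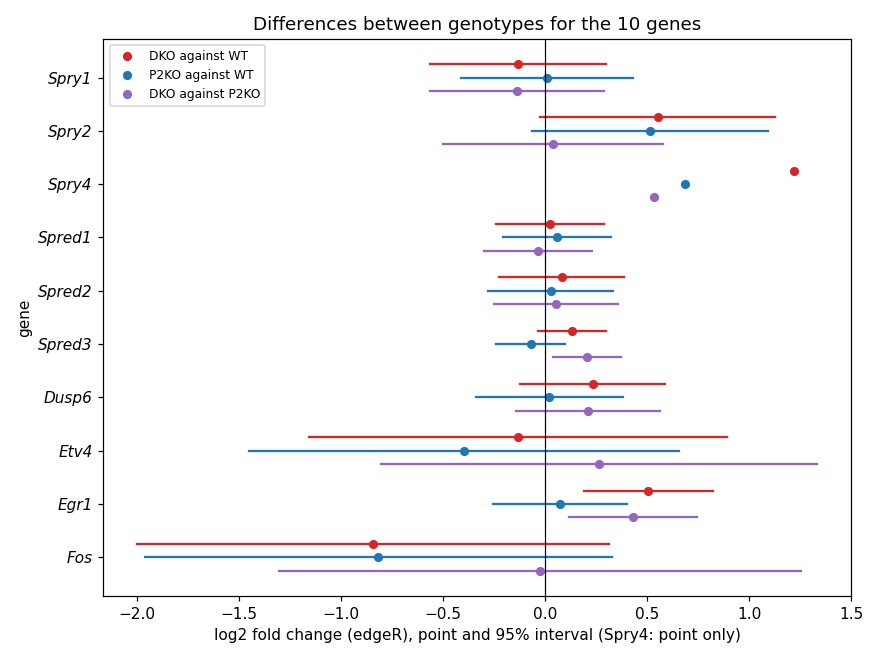
Log2 fold changes of the 10 genes in the 3 comparisons, with 95% intervals from the edgeR fit, except for Spry4, which is drawn as points because it was chosen for its level. For DKO against WT, Spry4 lies at 1.22, Egr1 at 0.51 with an interval above 0, and the intervals of the other 8 genes include 0.

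The rest of the pathway was read from a list of 93 genes in 6 roles, of which 87 could be tested. In DKO against WT, 1 gene of the list was called higher, the RAS inactivator Nf1, and 1 lower, the FGF receptor partner Flrt3. The shares over all genes were 2.06% higher and 1.16% lower. Of the 87, 16 had an unadjusted p under 0.05, where 14.1% of all genes did, and DESeq2 on all 6 libraries called 2. In P2KO against WT and in DKO against P2KO, edgeR called 0 of the 87 and DESeq2 on all 6 libraries 0, while 12 and 11 had an unadjusted p under 0.05, where 8.57% and 11.8% of all genes did. Without WT library 1 the count for DKO against WT was 5, while the calls over all genes also rose, from 428 higher and 240 lower to 762 and 303. Without WT library 2, DKO library 1 or DKO library 2 the count was 1, with 217 and 239, 230 and 110, and 129 and 121 calls over all genes.

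Flrt3 encodes a membrane protein that binds FGF receptors and promotes their signalling. It had normalized counts of 230 and 226 in WT, 186 and 168 in P2KO and 133 and 114.5 in DKO, so that the genotypes did not overlap and their order was the inverse of that of Spry4. On the log2 scale DKO differed from WT by -0.88 ± 0.146 (standard error, adjusted p = 0.000143), P2KO from WT by -0.36 (adjusted p = 0.424) and DKO from P2KO by -0.52 (adjusted p = 0.0880). Flrt3 kept its call in every alternative tried. It lies within Macrod2, which is on the opposite strand and had at most 634 counts in a library.

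Nf1 (neurofibromin) had normalized counts of 2591 and 2331 in WT, 2465 and 2749 in P2KO and 2989 and 3080 in DKO. Both DKO libraries were above all others, and WT and P2KO overlapped. DKO exceeded WT by 0.30 on the log2 scale (standard error 0.0674, adjusted p = 0.00519), which is 1.23-fold. With a correction for gene length it was 0.15 (adjusted p = 0.249), and without WT library 2, DKO library 1 or DKO library 2 the adjusted p was 0.0882, 0.0528 and 0.132.

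Of the 18 tested receptors and co-receptors, 14 had a log2 fold change above 0 in DKO against WT, where 48.8% of all genes did, and their median was 0.19. With the correction for gene length the median was 0.09 and 13 were above 0. Of the 18, 7 had an unadjusted p under 0.05, against 14.1% of all genes, and 10 were higher in DKO without overlap, against 21.6%. Kdr, the VEGF receptor of endothelium, stood at 0.66 (adjusted p = 0.0849), Ret, the GDNF receptor, at 0.38 (adjusted p = 0.236), and Klb, the co-receptor of FGF21 with the highest RPKM of the group (5.04 ± 0.387, SD, n = 6), at 0.21 (adjusted p = 0.278). The ligands had a median of 0.08, or 0.03 with the length correction, over 12 tested genes with 0 called by edgeR or DESeq2 and 3 with an unadjusted p under 0.05, and Pdgfa, the ligand with the highest RPKM, had a log2 fold change of -0.29 (adjusted p = 0.203). The 13 adaptors and RAS regulators had a median of 0.08, or 0.01 with the length correction, with the ubiquitin ligase Cbl at the highest RPKM (13.6 ± 0.559). The 15 genes from RAS to ERK had a median of 0.07, or -0.0016 with the length correction, with 0 called, and Mapk3, which encodes ERK1, had a log2 fold change of -0.07 (adjusted p = 0.676) at an RPKM of 64.5 ± 1.77. The other 13 tested feedback inhibitors had a median of 0.05 with 0 called, Dusp4 being the highest at 13.4 ± 0.468, and the other 16 tested ERK response genes a median of -0.04 with 0 called, Srf being the highest at 17.4 ± 1.41. By unadjusted p under 0.05, 1, 2 and 1 genes of the last 3 groups passed, and DESeq2 called 0.

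**Figure D4:**
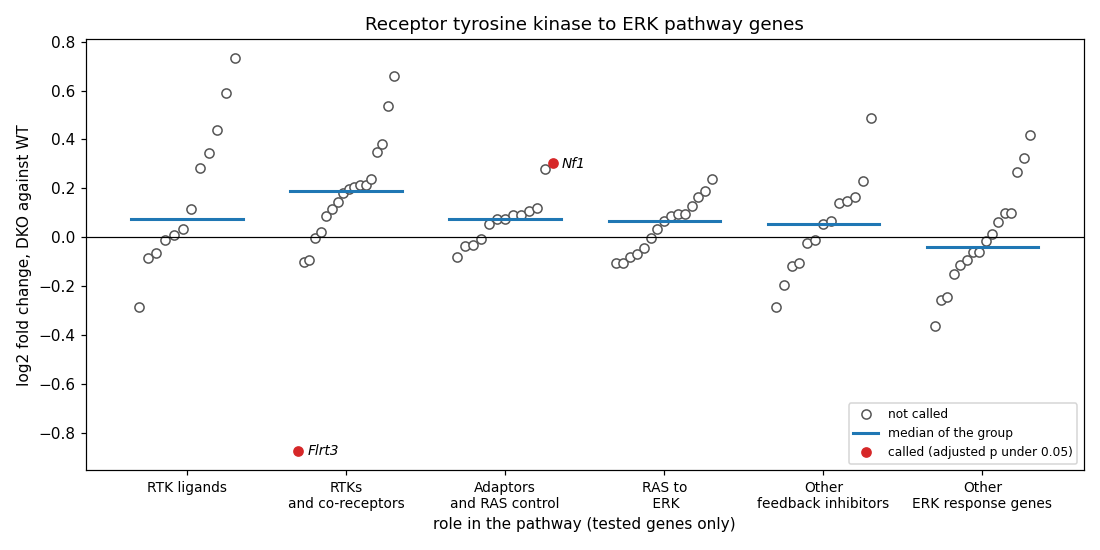
Log2 fold change of DKO against WT for each tested gene of the pathway list by role, with blue bars at the group medians and filled red points for called genes. Flrt3 at -0.88 and Nf1 at 0.30 are the 2 called genes, and the group medians run from -0.04 to 0.19.

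Further sets that bear on the pathway were examined. Of the 7 genes of the FGF8 network, which includes Spry4 and Dusp6, 6 were tested. Of the 5 besides Spry4, 1 was called in DKO against WT, where 3.22% of all tested genes were. That gene was Flrt3, which is already counted in the pathway list. Fgfr1 had a log2 fold change of 0.22 (adjusted p = 0.514), the FGF receptor antagonist Il17rd -0.12 (adjusted p = 0.780) and Fgf8, with 4 to 23 counts in a library, 0.73 (adjusted p = 0.563). Fgf17 had 4 to 8 counts and was not tested. Of 6 genes that respond to GDNF in spermatogonial stem cells, 5 were tested, with log2 fold changes of DKO against WT from -0.10 for Id4 to 0.32 for Lhx1. By edgeR and by DESeq2 0 were called, and 0 had an unadjusted p under 0.05. Etv5 stood at 0.10 (adjusted p = 0.778), Bcl6b at 0.10 (adjusted p = 0.894) and Pou3f1 at -0.06 (adjusted p = 0.972), and the T gene (Tbxt) was not tested. Of 11 immediate early genes, which tissue handling can also induce, 10 were tested and 0 called by edgeR or DESeq2. An unadjusted p under 0.05 was seen for 2 (Egr1 and Dusp1), against 14.1% of all tested genes. Beside Egr1 at 0.51, values on the log2 scale were 0.32 for Fosb, 0.15 for Btg2, 0.10 for Nr4a1 and 0.10 for Ier2, and -0.06 for Junb, -0.14 for Zfp36, -0.26 for Jun, -0.29 for Dusp1 and -0.84 for Fos. Atf3 was not tested. Of the 10, 5 were thus above and 5 below 0.

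Markers of testicular cell types were measured beside Spry4. In whole testis, fewer cells of a type and less RNA per cell cannot be told apart. Of 6 Leydig cell markers, 3 were called higher and 1 lower in DKO against WT. Of all tested genes, 2.06% were called higher and 1.16% lower. Star, which carries cholesterol into mitochondria, had a log2 fold change of 0.51 (adjusted p = 0.000159), Cyp17a1 of 0.31 (adjusted p = 0.0193), Cyp11a1 of 0.28 (adjusted p = 0.0324) and Hsd3b1, like the former an enzyme of steroid synthesis, of -0.46 (adjusted p = 0.000273). By DESeq2 on all 6 libraries the adjusted p of Star, Cyp17a1 and Cyp11a1 was 0.186, 0.662 and 0.526. Without DKO library 1 Hsd3b1 stood at -0.32 (adjusted p = 0.0860). Insl3 stood at 0.04 (adjusted p = 0.956) and the LH receptor Lhcgr at -0.38 (adjusted p = 0.128). The summed RPKM of the 6 markers was 229 to 231 in WT, 237 to 259 in P2KO and 239 to 286 in DKO. DKO library 1, which had the most Spry4 counts, also had the most Cyp17a1 and Cyp11a1, and without it their log2 fold changes were 0.08 and 0.07, while that of Spry4 was 0.97. The part of Leydig cells in the Spry4 values was not tested.

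**Figure D5:**
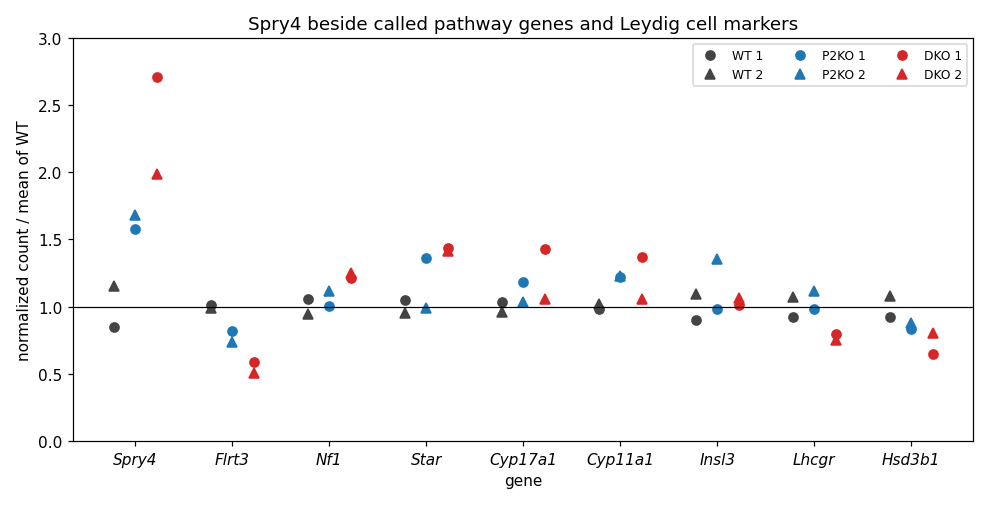
Normalized count of each library divided by the mean of the 2 WT libraries, for Spry4, the called pathway genes Flrt3 and Nf1 and the 6 Leydig cell markers (circles replicate 1, triangles replicate 2). Spry4 is above all WT libraries in both mutant genotypes and Flrt3 below them, while the Leydig markers go in both directions.

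In DKO against WT 0 of 8 Sertoli cell, 8 spermatogonial, 6 spermatocyte, 5 peritubular, 5 macrophage and 4 tested endothelial markers were called by edgeR or DESeq2 on all 6 libraries. Over all tested genes edgeR called 2.06% higher and 1.16% lower. By unadjusted p under 0.05, 1 spermatogonial and 1 endothelial marker passed, against 14.1% of all genes. The 4 tested endothelial markers had a median log2 fold change of 0.29, and 3 were higher without overlap, against 21.6% of all genes. Vwf stood at -0.11. Of 6 spermatid markers, Tnp1 (-0.25, adjusted p = 0.0130) and Prm1 (-0.22, adjusted p = 0.0302), which pack sperm chromatin, were called lower, and of these DESeq2 on all 6 libraries called 0. With the length correction their adjusted p was 0.200 and 0.331, without DKO library 1 0.228 and 0.269, without DKO library 2 0.0636 and 0.139, and that of Prm1 without WT library 2 was 0.0992. The summed RPKM was 254 to 269 in WT, 264 to 274 in P2KO and 236 to 267 in DKO for Sertoli cell markers, 44.0 to 45.9, 43.4 to 43.7 and 40.5 to 41.5 for spermatogonial markers, 20.0 to 22.6, 18.3 to 20.1 and 20.1 to 23.9 for peritubular markers (highest Acta2), 8.40 to 10.5, 8.31 to 9.54 and 9.14 to 10.4 for macrophage markers (highest Mrc1), and 2.65 to 2.70, 2.88 to 2.93 and 2.88 to 3.00 for endothelial markers (highest Cdh5). Spermatocyte markers summed to 392 to 393, 401 to 403 and 389 to 405, and spermatid markers to 20362 to 21254, 17091 to 19026 and 18448 to 18626. Of the 8 Sertoli cell markers, 8 had a log2 fold change above 0 in P2KO against WT (median 0.11) and 0 in DKO against P2KO (median -0.16), comparisons that share the P2KO libraries, where 51% and 49.2% of all genes did. Of these markers edgeR and DESeq2 called 0 in both, and 0 and 1 had an unadjusted p under 0.05. In P2KO against WT the spermatid gene Tnp2 was called lower (-0.29, adjusted p = 0.000762), with an adjusted p of 0.0784 without P2KO library 1. Of 5 adipose markers 3 were tested, with Adipoq the highest in RPKM, and Car3 had 0 counts in both P2KO libraries and was called between P2KO and each of the other genotypes by edgeR. For DKO against P2KO, DESeq2 gave no call of Car3, and the adjusted p of edgeR was 0.127 without P2KO library 1, 0.0906 without P2KO library 2 and 0.189 without DKO library 2. Of 5 epididymal markers, 1 was tested (Rnase10) and 0 were called.

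The genes most like Spry4 over the 6 libraries were sought among 509 tested genes with a mean of at least 50 counts and an SD of log2 CPM of at least 0.3. By Pearson's correlation on log2 CPM they were Nckap5 (0.972), Gm9165 (0.929), Zfp984 (0.921), Pla2g5 (0.914) and Emc1 (0.900). With 6 libraries in 3 genotypes this is a description of a common order and carries no p. Nckap5, on chromosome 1, had normalized counts of 56.3 and 68.5 in WT, 87.8 and 84.1 in P2KO and 104 and 101 in DKO, and thus the same order of genotypes as Spry4. Zfp984, Pla2g5 and Emc1 lie on chromosome 4, which also carries the Padi genes, and Zfp984 and Gm9165 have near-identical transcripts elsewhere, so that their reads could have been split.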

How the data were processed

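Poly(A) RNA of 6 testes was sequenced from directional libraries. The deposited table holds raw read counts per gene, which the authors made with STAR on Ensembl genes of the mouse genome, and which strand setting was used is not given in the sources used here. The members and gene lists were chosen with earlier results of these data known. Gene lengths and positions came from GENCODE release 21 (Ensembl 96, GRCm38). Genes passed edgeR's filterByExpr (minimum count 10). Counts were scaled by TMM and fitted with edgeR 4.0.16 (quasi-likelihood, all 6 libraries, genotype as factor) in R 4.3.3, with limma 3.58.1. DESeq2 1.42.0, other scalings and filters, fits on 2 genotypes, a replicate block, a length correction (lowess, span 0.3) and leaving out each library were alternatives. Intervals cover 95%. RPKM used merged exon length. Similar transcripts were sought with BLAST 2.17.0 (95% identity). Named genes were the members, Padi2 and Padi4, the called genes and the gene of highest RPKM of each list or role, the FGF8, GDNF and immediate early lists, the tested genes within 250 kb of Spry4 and the 5 genes most correlated with it. Kdr, Ret, Insl3, Lhcgr, Crisp1, Lcn5, Lcn8, Lcn9 and the called genes between Egr1 and Spry4 were named after their values were seen. Total counts were 21939393 to 27306679 per library. Each library is 1 mouse. The edgeR fit of DKO against WT was tested on simulated data.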

Additional observations from a re-analysis of the deposited data

How the results depend on the processing

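Of the 9 genes other than Spry4, 0 were called under any alternative in any comparison. The log2 fold change of Spry4 stayed above 0 throughout, at 0.97 to 1.47 (DKO against WT), 0.50 to 0.93 (P2KO against WT) and 0.28 to 0.73 (DKO against P2KO) over fits leaving out 1 library. Called pathway genes in DKO against WT numbered 1 with the length correction, with or without the block, and 1 to 5 leaving out 1 library. In P2KO against WT they numbered 0 to 2 (2 without WT library 1, where calls over all genes rose from 41 higher and 29 lower to 221 and 90). In DKO against P2KO they numbered 2 by edgeR and 1 by DESeq2 on the genotypes compared, and 0 to 4 leaving out 1 library (3 without WT library 1, 4 without WT library 2). Calls over all genes in DKO against P2KO were 126 higher and 124 lower, and under these 4 fits 321 and 258, 190 and 71, 315 and 262, and 348 and 274. The cause was not tested. Over all genes in DKO against WT, 428 were called higher and 240 lower, against 367 and 322 with upper-quartile scaling, 291 and 241 with the length correction, and 191 and 105 by DESeq2 on the genotypes compared. Without WT library 1 they were 762 and 303, and without DKO library 2 129 and 121.

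Same-numbered libraries did not deviate together over all tested genes (correlations -0.0572, 0.0574 and -0.0502). With 2 libraries per genotype, a weak pairing or one limited to few genes would not show in these values. With a replicate block the log2 fold change of Spry4 was 1.21, 0.68 and 0.53, the called pathway genes were 2, 0 and 0, and 0 of the 9 genes were called.

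Spred1 in DKO against WT was -0.024 with the length correction and -0.025 with the block added, and Spry1 in P2KO against WT was -0.0071 with upper-quartile scaling and -0.0035 with the block. Leaving out 1 library, DKO against WT ran from -0.30 to 0.079 for Spry1, -0.077 to 0.12 for Spred1, -0.049 to 0.19 for Spred2, -0.49 to 0.17 for Etv4 and -3.02 to 0.33 for Fos. P2KO against WT ran from -0.22 to 0.22 for Spry1, -0.042 to 0.15 for Spred1, -0.018 to 0.065 for Spred2, -0.18 to 0.020 for Spred3, -0.22 to 0.30 for Dusp6, -0.017 to 0.16 for Egr1 and -1.39 to 0.36 for Fos. DKO against P2KO ran from -0.31 to 0.093 for Spry1, -0.080 to 0.16 for Spry2, -0.12 to 0.059 for Spred1, -0.074 to 0.16 for Spred2, -0.017 to 0.46 for Dusp6, -0.095 to 0.57 for Etv4 and -2.20 to 0.76 for Fos. With 2 mice per genotype, only large changes could pass for genes of few counts.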
